A study of Rattus norvegicus with 6 samples.

Results

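The 10 genes described here encode the liver enzymes of the methionine cycle and of transsulfuration: Mat1a, Mat2a, Gnmt, Pemt, Ahcy, Bhmt, Cbs, Cth, Cdo1 and Csad. They were taken by name, and a probe counted as theirs when its RefSeq accession maps to 1 of these symbols. All 10 had at least 1 probe, 17 probes in all, out of 15284 named genes with a probe on the array. Liver RNA came from male Sprague-Dawley (Crl:CD(SD)) rats bought at 5 weeks of age, with 1 one-colour Agilent array per rat. In the treated group, 3 rats received 1000 mg/kg/day of nitrilotriacetic acid trisodium monohydrate (NTA), which chelates metal ions, and 3 rats received vehicle alone. For the vehicle, the sample characteristics say purified water and the treatment protocol says corn oil. For the duration, the series design says 28 days and the treatment protocol says 9 weeks, and neither conflict was settled here. Both groups shared strain, sex, basal diet and tap water, and the labels name no genotype other than the strain.

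The methionine cycle turns dietary methionine into S-adenosylmethionine (SAM), the methyl donor of the cell, and the methyltransferases that spend it leave S-adenosylhomocysteine, which is split to homocysteine. Homocysteine is either methylated back to methionine or drawn off by transsulfuration into cysteine, which the liver uses for glutathione, taurine and sulfate. The liver carries most of the body's traffic through this cycle, and hepatocytes express a liver-specific set of its enzymes.

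Values are log2 of the processed signal minus log2 of the same array's 75th percentile, so that 0 is the 75th percentile, and group values are mean ± SD with n = 3 rats. They compare the same probe between arrays and do not rank genes by abundance. All 17 probes were well above background on all 6 arrays, with 0 saturated and 0 flagged as non-uniform. Between 62.4% and 64.5% of the probes on an array were well above background. All NTA arrays lay on 1 slide that held no vehicle array, so the effects of slide and of treatment cannot be told apart. Vehicle replicate 3 had a slide and a scan day to itself. The 10 hepatocyte markers checked were above background on all 6 arrays, which bears out the liver label. The filter on dim probes passed 1 of 5 pancreas genes with a probe, 2 of 3 kidney genes and 1 of 3 adipocyte genes. The adipocyte gene was the fatty acid carrier Fabp4. The kidney gene Aqp2 was at 3.31 to 3.75 with vehicle and 3.41 to 3.54 with NTA. The other kidney gene that passed, Umod, was dim, at −4.62 to −4.10 with vehicle and −4.62 to −4.27 with NTA. The kidney gene Slc34a1 has a probe and did not pass. Aqp2 thus gives no contrast to the hepatocyte markers, while Umod and Slc34a1 were dim.

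None of the 10 genes passed the test between NTA and vehicle (limma, Benjamini-Hochberg adjusted p from 0.517 to 0.999 over 30353 features). Over all features 0.0297% passed, so a count of 0 in 10 genes is no departure from the rest of the array. At an unadjusted p under 0.05 there was 1 gene, Cth, lower with NTA, against 3.91% of all features in that direction and 7.57% in either. The same gene was the only 1 of the 10 whose groups did not overlap, against 8.03% of features that lay lower without overlap and 13.6% that did not overlap in either direction. With 10 genes, 1 is not far from those shares. The median log2 difference over the 10 genes was −0.15, with 7 genes below 0, while over all features it was −0.03 with 56.1% below 0. Many features are unnamed probes. Over the 11251 named genes tested the median was −0.006, with 5773 below 0. Of these named genes, 341 were lower at an unadjusted limma p under 0.05 and 766 lay lower without overlap.

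**Figure D1:**
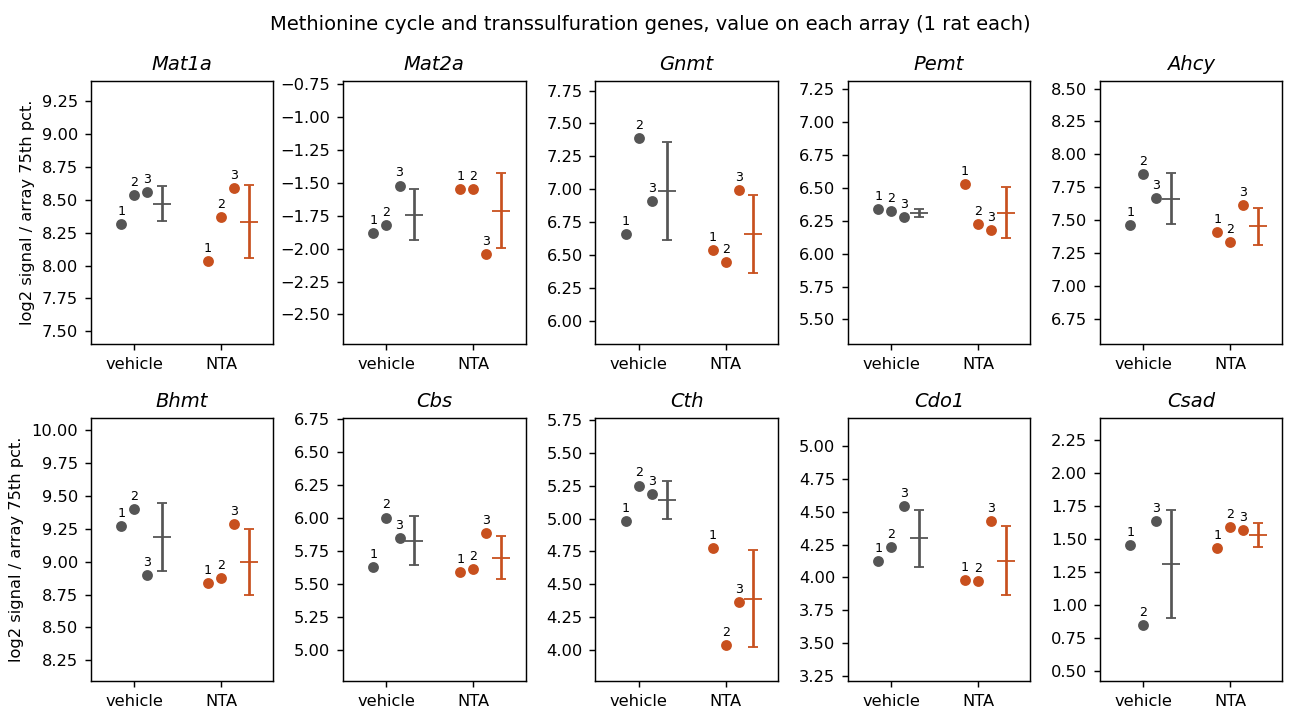
Value of each gene's brightest probe on each array, as log2 signal over the 75th percentile of that array, with each panel spanning the same range of log2 units; points are rats numbered by replicate and bars are mean ± SD (n = 3). Cth is the gene whose NTA rats, at 4.04 to 4.78, all lay below its vehicle rats, at 4.98 to 5.25, and the groups overlap in the other 9 panels.

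SAM is made by 2 methionine adenosyltransferase genes. Mat1a, the form of the adult hepatocyte, gave 8.32, 8.53 and 8.56 in vehicle replicates 1 to 3 and 8.04, 8.37 and 8.59 in the NTA rats. The NTA group held both the lowest and the highest of these 6 values, and its mean of 8.33 ± 0.28 stood against 8.47 ± 0.13 with vehicle (log2 difference −0.14, SE 0.17; limma, adjusted p = 0.876). Mat1a's other 2 probes differed by −0.15 and −0.16, so its 3 probes lay within a narrow band of each other despite very different brightness.

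Mat2a, the form found in most other tissues and in dividing or less differentiated liver cells, was dim in this tissue, at −1.88, −1.82 and −1.52 with vehicle and −1.55, −1.54 and −2.04 with NTA. Its highest and its lowest rat were vehicle replicate 3 and NTA replicate 3. The log2 difference was 0.03 with a 95% interval from −0.40 to 0.46, and the other probes of Mat2a gave 0.05 and 0.08. The intervals of both genes span differences in either direction, and changes inside those bounds could not be resolved with 3 rats a group.

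Among the methyltransferases that spend SAM, Gnmt methylates glycine and so disposes of surplus methyl groups. Its vehicle rats were at 6.66, 7.39 and 6.91 and its NTA rats at 6.54, 6.44 and 6.997. Vehicle replicate 2 was the highest and NTA replicate 2 the lowest, while NTA replicate 3 lay above vehicle replicates 1 and 3. The difference of −0.33 (SE 0.23; limma, adjusted p = 0.795) was the second largest of the 10 in size. It moved from −0.49 without NTA replicate 3 to −0.12 without vehicle replicate 2.

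Pemt makes phosphatidylcholine from phosphatidylethanolamine at the cost of SAM. Its vehicle rats agreed closely, at 6.34, 6.32 and 6.28, and its NTA rats were at 6.53, 6.23 and 6.18, on both sides of that group. The means were 6.31 ± 0.03 with vehicle and 6.31 ± 0.19 with NTA, with a 95% interval of the difference from −0.30 to 0.30. Pemt's second probe differed by −0.05.

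Ahcy splits S-adenosylhomocysteine, which would otherwise inhibit methyltransferases, into homocysteine and adenosine. It was at 7.46, 7.85 and 7.67 with vehicle and 7.41, 7.34 and 7.61 with NTA. Here NTA replicates 1 and 2 lay below every vehicle rat, and NTA replicate 3 lay between them. The log2 difference was −0.21 (SE 0.14; limma, adjusted p = 0.780).

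Bhmt, which methylates homocysteine back to methionine with betaine as the donor, is the branch of remethylation found mainly in liver and kidney. The vehicle rats were at 9.27, 9.40 and 8.89 and the NTA rats at 8.84, 8.87 and 9.29. Vehicle replicate 3, the rat on the separate slide and scan day, was the low one of its group, and NTA replicate 3 was the high one of its own. The log2 difference was −0.19 (SE 0.19; limma, adjusted p = 0.850). It became −0.33 without vehicle replicate 3, which is the same fit as the main scan day alone. Without vehicle replicate 2 it was −0.08. Bhmt's second probe gave −0.20 and placed the same 2 rats apart from their groups, at 5.19 for vehicle replicate 3 and 5.98 for NTA replicate 3.

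**Figure D2:**
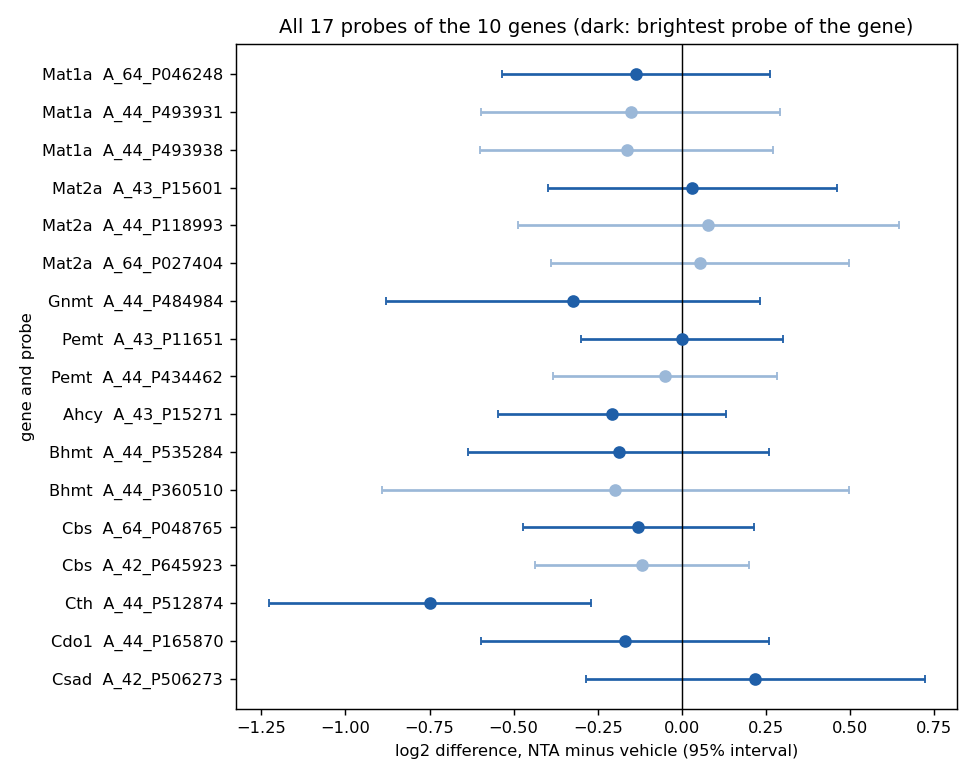
Log2 difference (NTA minus vehicle, horizontal axis) with its 95% interval from limma for all 17 probes, grouped by gene, with the brightest probe of each gene in the darker shade. The interval of the Cth probe, from −1.23 to −0.27, is the only 1 of the 17 that leaves out 0, and probes of the same gene lie close together.

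Transsulfuration takes 2 steps. Cbs joins homocysteine to serine as cystathionine, and Cth cleaves cystathionine to free cysteine. Cbs was at 5.63, 6.01 and 5.85 with vehicle and 5.59, 5.62 and 5.89 with NTA, a difference of −0.13 (SE 0.14; limma, adjusted p = 0.864), and its second probe gave −0.12. NTA replicate 3 lay above 2 of the 3 vehicle rats. Cth was at 4.98, 5.25 and 5.19 with vehicle and 4.78, 4.04 and 4.36 with NTA. Its lowest vehicle rat and its highest NTA rat were the replicates numbered 1, 4.98 against 4.78, and the other NTA rats lay further down.

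For Cth the means were 5.14 ± 0.14 with vehicle and 4.39 ± 0.37 with NTA, a fold of 0.595 (log2 difference −0.75, SE 0.20; limma, unadjusted p = 0.00828, adjusted p = 0.517). By unadjusted p it stood at rank 484 of 30353 features. Cth has 1 probe on this array, so no second probe could be compared. The difference was −0.94 without NTA replicate 1 and −0.57 without NTA replicate 2, and −0.72 within the main scan day. Over all alternatives its adjusted p stayed between 0.349 and 0.733.

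Because Cbs and Cth act in sequence, their values were also set against each other on each array, a comparison chosen after their values were seen. With each gene centred on its vehicle mean, Cth minus Cbs was 0.04, −0.07 and 0.03 in the vehicle rats and −0.13, −0.89 and −0.83 in the NTA rats. The mean difference between the groups was −0.62. All 3 NTA rats lay below all 3 vehicle rats, and NTA replicate 1 lay close to them. Against the median of the other 9 genes on the same array, Cth gave −0.01, 0.05 and 0.03 with vehicle and −0.11, −0.89 and −0.83 with NTA. Both contrasts were chosen after Cth was seen to stand apart, so they describe that separation again and carry no test.

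The stretches before the start sites of these 2 genes are shown because Cbs and Cth stand side by side in the pathway and gave the contrast just described. They are RefSeq sequences of the assembly GRCr8, 250 bases ending at the base before the annotated start, on the minus strand, at chr2:249661067-249661316 for Cth and chr20:9733926-9734175 for Cbs. Capitals mark the CCAAT box, the GC box letters GGGCGG or the TATA box letters TATAAA, on either strand, and no marked motifs overlap.
Cth: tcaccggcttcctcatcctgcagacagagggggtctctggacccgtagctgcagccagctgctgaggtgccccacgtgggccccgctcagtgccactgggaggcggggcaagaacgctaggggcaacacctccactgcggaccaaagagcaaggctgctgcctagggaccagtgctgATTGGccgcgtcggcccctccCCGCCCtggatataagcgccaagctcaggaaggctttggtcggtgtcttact
Cbs: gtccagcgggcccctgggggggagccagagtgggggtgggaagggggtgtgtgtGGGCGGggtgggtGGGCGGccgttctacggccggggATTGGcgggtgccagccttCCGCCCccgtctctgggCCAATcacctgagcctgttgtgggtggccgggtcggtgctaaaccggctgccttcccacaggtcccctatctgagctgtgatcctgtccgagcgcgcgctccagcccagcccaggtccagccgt
Cth holds 1 CCAAT, read on the opposite strand, and 1 GGGCGG, and Cbs holds 2 and 3. In 27457 rat windows of that length, 34.3% hold CCAAT and 32.4% hold GGGCGG. Of the 9 members with a window, 6 hold CCAAT, 6 hold GGGCGG and 2, Bhmt and Mat2a, hold TATAAA, which 13.1% of all windows hold. The letters TGATGNAA, found in sites of ATF4, and TGACNNNGC, found in antioxidant response elements, were searched on both strands and occur in 0 of the 9 windows, against 3.27% and 10.2% of all windows. A match or its absence describes the letters of this window alone. Csad and Mat2a had the most CpG pairs of the 9, 37 and 29, and Mat1a the fewest, 3, with a median of 13 against 6 over all windows.

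Cysteine leaves the pathway through Cdo1, the dioxygenase that oxidises it to cysteine sulfinate, and Csad, which decarboxylates that product on the way to taurine. Cdo1 was at 4.12, 4.23 and 4.54 with vehicle and 3.98, 3.97 and 4.43 with NTA. NTA replicates 1 and 2 again lay below every vehicle rat and NTA replicate 3 did not, for a difference of −0.17 (SE 0.18; limma, adjusted p = 0.854). Within the main scan day the Cdo1 difference was −0.05.

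Csad was at 1.45, 0.85 and 1.64 with vehicle and 1.43, 1.59 and 1.57 with NTA. Vehicle replicate 2 was low, and the other 5 rats lay between 1.43 and 1.64. The Csad difference of 0.22 (SE 0.21; limma, adjusted p = 0.845) became −0.01 without vehicle replicate 2.

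Across the enzymes the rats of the NTA group differed among themselves. The median over the 10 genes, each centred on its vehicle mean, was −0.28 in NTA replicate 1, −0.26 in NTA replicate 2 and 0.03 in NTA replicate 3. In vehicle replicates 1 to 3 it was −0.16, 0.09 and 0.03. NTA replicate 3 thus lay inside the vehicle range, and the group median of −0.15 became −0.28 without it. Without vehicle replicate 2 it was −0.09.

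Hepatocyte markers were set beside the enzymes. The list of 10, which holds albumin (Alb), transthyretin (Ttr) and the transcription factor Hnf4a, had a median difference of −0.15 with 9 of 10 below 0, 0 past the adjusted threshold and 1 lower at an unadjusted p under 0.05. On the arrays its median was −0.04, 0.10 and −0.04 with vehicle and −0.13, −0.20 and −0.20 with NTA. The enzymes' median minus that of the hepatocyte markers was −0.02 ± 0.10 with vehicle and 0.01 ± 0.20 with NTA (difference 0.03). Taken relative to the hepatocyte markers, a scaling chosen after the data were seen, the differences of Cbs, Mat1a and Cdo1 were 0.06, 0.05 and 0.02, and that of Cth was −0.56 (limma, adjusted p = 0.349). That scaling raised the median of all features to 0.16. In whole liver, fewer cells of a type and less RNA per cell cannot be told apart.

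Markers of most other cell types lay on the other side of 0. Of 7 sinusoidal endothelium genes measured, 7 lay above 0, with a median of 0.54 and array medians of −0.10 to 0.16 with vehicle and 0.42 to 0.66 with NTA. Of 8 cell cycle genes, 8 lay above 0, with a median of 0.92 and array medians of −0.18 to 0.30 with vehicle and 0.40 to 1.12 with NTA. For 10 Kupffer cell and macrophage genes the array medians overlapped, at −0.57 to 0.39 with vehicle and −0.04 to 0.83 with NTA. Medians were 0.75 over 3 B and plasma cell genes, 0.57 over 6 erythroid genes, 0.20 over 4 biliary genes and 0.05 over 6 stellate cell and fibroblast genes. At an unadjusted limma p under 0.05, the genes higher with NTA were 6 of 7 for sinusoidal endothelium, 5 of 8 for the cell cycle, 4 of 6 for erythroid cells, 3 of 3 for B and plasma cells, 2 of 10 for Kupffer cells and macrophages, and 0 for the biliary and stellate lists. The share of all features that were higher at that p was 3.66%. The marker lists were chosen with earlier results of these data known, so these counts are descriptions and carry no test. Fabp4, the 1 adipocyte gene that passed the filter on dim probes, was at −4.91, −4.28 and −4.59 with vehicle and −1.64, −2.00 and −2.41 with NTA. Its groups did not overlap (log2 difference 2.58, SE 0.24; limma, adjusted p = 0.069), and the adipocyte genes Adipoq and Lep did not pass that filter. None of these marker genes passed the adjusted threshold, and the part of cell composition in the enzymes' values was not tested. The scaling to the hepatocyte markers above is a description and no test of that part.

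**Figure D3:**
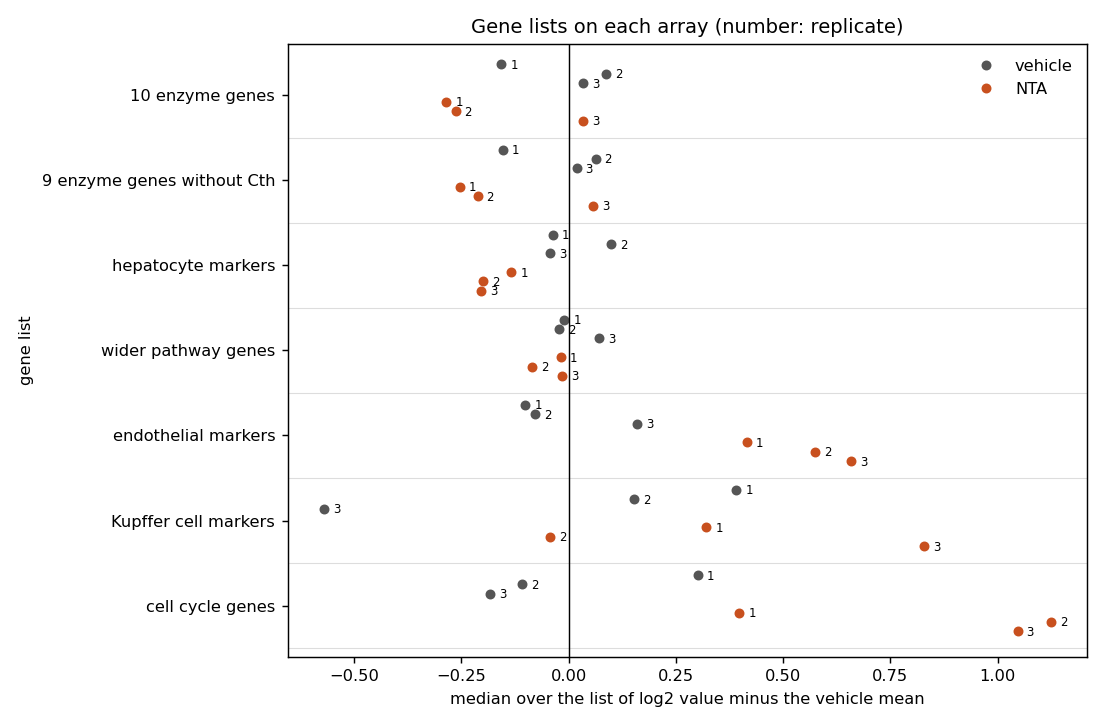
Median over each gene list of the log2 value minus that gene's vehicle mean (horizontal axis), 1 point per array, with numbers giving the replicate. For the 10 enzyme genes NTA replicate 3, at 0.03, lies among the vehicle rats, whereas endothelial markers are at 0.42 to 0.66 in the NTA rats and at most 0.16 in the vehicle rats.

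Around the cycle, 65 further genes in 6 lists were considered, of which 58 had a probe and 55 were tested. Of the 55, 0 passed limma's adjusted threshold, 2 were higher and 0 lower at an unadjusted p under 0.05 (3.66% and 3.91% of all features), and their median difference was −0.03, as over all features. The groups did not overlap for 5 genes higher and 4 lower, against 5.57% and 8.03% of all features. Folate and remethylation genes had a median of −0.11 over 12 genes, with 8 below 0. The smallest p belonged to Aldh1l1, which oxidises formyl-tetrahydrofolate and so removes one-carbon units from the folate pool. It was at 4.86, 5.29 and 4.95 with vehicle and 5.59, 5.80 and 5.50 with NTA, without overlap (log2 difference 0.60, SE 0.15; limma, unadjusted p = 0.00645, adjusted p = 0.516). Mthfd1, the trifunctional folate enzyme, followed at 0.25 (SE 0.11), with all NTA rats above all vehicle rats. Named after its values were seen, Bhmt2, the homologue of Bhmt that methylates homocysteine with S-methylmethionine, was at −0.25 (SE 0.11) with no overlap, and at −0.14 on its other probe. The brightest probes of Mthfs, which returns formyl groups to the folate pool, and Mtrr, which keeps methionine synthase active, also gave groups without overlap, but their probes differed in sign. Mthfs was at 0.26 on its brightest probe and at −0.01 and 0.10 on the other two. Mtrr was at −0.11 on its brightest probe and at −0.12 and 0.02 on the other two.

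Choline, betaine and phosphatidylcholine genes had a median of −0.05 over 6. Chdh, the mitochondrial choline dehydrogenase that starts the synthesis of betaine, Bhmt's methyl donor, was at 5.21, 5.07 and 5.05 with vehicle and 5.64, 5.57 and 5.37 with NTA. No NTA rat lay within the vehicle range (log2 difference 0.41, SE 0.12; limma, unadjusted p = 0.0107, adjusted p = 0.525), and the second probe of Chdh gave 0.39. Dmgdh, which demethylates the dimethylglycine that Bhmt leaves, was at −0.27 (SE 0.15).

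The lists of SAM use with adenosine removal and of polyamine synthesis with methionine salvage had medians of −0.03 over 10 genes and 0.05 over 9, each with 0 genes at an unadjusted p under 0.05. Their smallest p values belonged to the creatine-forming methyltransferase Gamt at −0.17 (SE 0.12), the maintenance DNA methyltransferase Dnmt1 at −0.22 (SE 0.17), the polyamine acetylase Sat1 at −0.37 (SE 0.21) and the salvage enzyme Adi1 at −0.12 (SE 0.10). A second probe above background gave −0.20 for Gamt, 0.02 for Dnmt1, −0.28 for Sat1 and −0.18 for Adi1, so that the probes of Dnmt1 differed in sign.

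Downstream of Cth, cysteine, taurine and sulfide genes had a median of −0.07 over 10 genes and glutathione genes −0.12 over 8, again with 0 at an unadjusted p under 0.05. The taurine transporter Slc6a6 had the largest difference in size, −1.17 (SE 0.61), and a wide spread within the vehicle group, from −1.12 to 1.13. Its NTA rats were at −1.63, −1.48 and −0.34, so the groups overlapped, and its second probe gave −0.97. Tst, the sulfurtransferase rhodanese, was at 0.19 (SE 0.11). Among the glutathione genes the groups did not overlap for glutathione synthetase, Gss, at −0.36 (SE 0.16), nor for Ggct, which degrades gamma-glutamyl peptides, at −0.23 (SE 0.13). Gclc, the catalytic subunit of the rate-limiting step from cysteine to glutathione, named after its value was seen, was at 0.00 (SE 0.17).

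**Figure D4:**
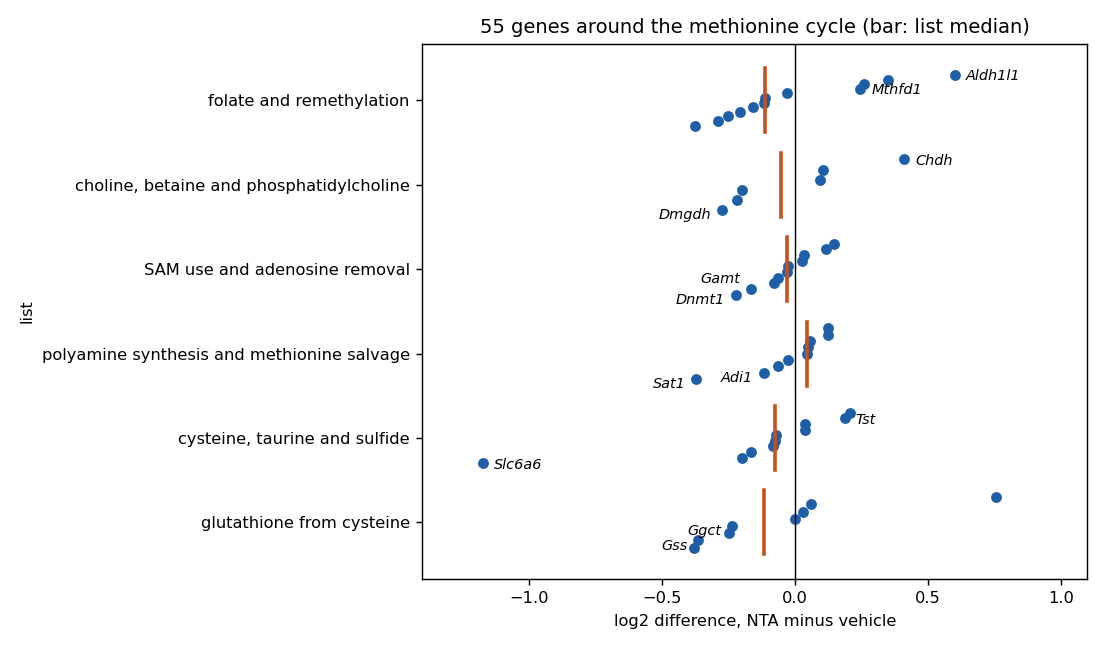
Log2 difference (NTA minus vehicle, horizontal axis) of the 55 tested genes around the methionine cycle by list, with the list median as a bar and the 2 genes of smallest p in each list named. The list medians lie between −0.12 and 0.05, and single genes such as Aldh1l1 at 0.60 and Slc6a6 at −1.17 lie farther out.

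Genes with the profile most like Cth over the 6 arrays, by the root mean square difference of values centred on the vehicle mean among 10846 named genes, were Agxt2 (0.096 log2 units), Ccdc24 (0.142) and Mrpl18 (0.189). Agxt2, a mitochondrial aminotransferase of liver and kidney, differed by −0.80 (SE 0.19; limma, adjusted p = 0.490). For Ahcy they were Dnajb6, Eif1b and Mcfd2, at 0.039, 0.043 and 0.047, and for Gnmt they were Cwf19l1, Vcpip1 and Cdc42ep4, at 0.051, 0.068 and 0.098. These are descriptions over 6 arrays.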

How the data were processed

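The 6 arrays, 3 NTA and 3 vehicle, were scanned images read by Agilent Feature Extraction. The submitters' processing notes give its version as 10.7, and it is 10.7.1.1 per the file headers (array design 035170, build rn4). The deposited scanner files hold intensity: a background-subtracted, spatially detrended processed signal, and median spot and background values. The authors' deposited table holds a ratio on the linear scale, of processed signal to the array's 75th percentile; 100% of its 61657 values per array equalled that quotient within 0.0001 plus 0.2%.

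Non-control probes (61657) were named by unversioned RefSeq accession through a GRCr8 gene table: 27460 had 1 symbol and none had several. Flagged non-uniform spots, 1 to 14 per array, were left out. Log2 values were taken relative to the array's 75th percentile, which lay between 464 and 558. A probe was kept if well above background on all 3 arrays of a group, with the brightest probe per gene, leaving 30353 features (11251 named genes). The comparison used limma 3.58.1 under R 4.3.3 (lmFit, eBayes, two-sided, Benjamini-Hochberg over all features, threshold 0.05), with 4 residual and 2.54 prior degrees of freedom; it was tested on simulated data. Probe differences came from the same test on 38168 probes. Each array was taken as 1 rat; their number limits the precision. The members and lists were chosen with earlier results of these data known. All 10 members are named; of each wider list, the 2 genes with the smallest p (1 gene of these lists is not reported here, though it stays in the tests); and the 3 genes most like each of the 3 members with the smallest p. Alternatives covered background correction, normalization, filters, probe rules, variance model, slide, scan day, replicate block and each array left out. The slide block could not separate slide from treatment, because the NTA slide held no vehicle array. The planned normexp used median spot signals, since the scanner files used here hold no mean signal.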

Additional observations from a re-analysis of the deposited data

How the results depend on the processing

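None of the 10 members passed limma's adjusted threshold in any of the 18 alternatives, and Cth was the 1 member at an unadjusted p under 0.05 in each; the Cth difference stayed below 0, from −0.94 to −0.56. Over all features the count past the threshold, 9, was 0 with the replicate block, 16 relative to the hepatocyte markers (an alternative chosen after seeing the data), and between 1 (without NTA replicate 2) and 8 when 1 array was left out, with 4 without NTA replicate 1. Same-numbered arrays did not all deviate together (r = 0.17, −0.0064 and −0.075), so the number does not pair them. Relative to the hepatocyte markers the median of the members was 0.031 and that of the wider pathway genes 0.15, and Cbs, Mat1a and Cdo1 turned to 0.056, 0.047 and 0.015. Signs of differences near 0 also turned elsewhere. With normexp on the median spot signals Cbs was at 0.041 and Pemt at −0.026. Pemt was at −0.025 with the mean of its probes and at −0.017 with scan day blocked. Blocking scan day, using that day's 5 arrays alone and leaving out vehicle replicate 3 are the same fit. The 18 alternatives are therefore not all separate checks. With 1 array left out Pemt ran from −0.11 to 0.067, Mat2a from −0.053 to 0.19, Mat1a from −0.27 to 0.010 and Csad from −0.013 to 0.38. The causes were not tested. Bhmt, Gnmt, Ahcy and Cth kept their sign in all 18. Relative to the hepatocyte markers, however, Bhmt and Ahcy were near 0, at −0.0026 and −0.024, and Gnmt was at −0.14. The dim signal of Mat2a and the 3 rats per group limit what could be resolved.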
